A study of Mus musculus with 6 samples.

Results

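To describe the blood vessels of the retina in H3K27ac data, 10 genes of endothelial cells and pericytes were followed: Cldn5, Pecam1, Cdh5, Tek, Tie1, Flt1, Kdr, Pdgfrb, Rgs5 and Sox17, out of 21938 protein-coding genes. They were chosen as a fixed list of vascular cell genes. The locus of a gene was its body with 20 kb on either side, and its promoter was 2.5 kb on either side of any annotated transcription start site (TSS). H3K27ac, the acetylation of lysine 27 of histone H3, is found at active promoters and enhancers. The mark was profiled by ChIP-seq in retinas of wild-type mice that were 3 months old at the first pressure elevation. In 3 samples (4xIOP), the eye had been held at 30 mmHg of intraocular pressure for 1 h, 4 times at intervals of 2 weeks. The other 3 samples (control) were untreated contralateral eyes. Each library came from 1 retina, taken on day 2 following the fourth elevation. The treatment protocol given for all samples also describes injections of dasatinib or vehicle in an experimental group, and no label says whether any of these mice received them.

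Retinal vessels are tubes of endothelial cells wrapped by pericytes. Endothelial cells seal the blood-retina barrier with junction proteins and respond to VEGF and angiopoietins through receptor tyrosine kinases, while PDGF-B from the endothelium holds pericytes through the receptor Pdgfrb. Vascular cells are a small minority in a retina that consists mostly of photoreceptors. In whole tissue, fewer cells of a type and less of the mark per cell cannot be told apart.

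The data were 6 peak lists, 1 per sample, with 19913 to 36509 peaks in control and 16195 to 20804 in 4xIOP. Control replicate 3 held the most peaks (36509). The mean background of a list was taken as the lowest background recovered from fold enrichment and p-value at any of its peaks. Divided by the length of the shortest peak of the list, it ranged from 87.4 to 173 fragments per 10000 bp. Where the local background was at this mean, the lowest summit that was called held 9 to 12 fragments, which sets the height below which a locus appears empty. A locus without a peak was therefore below detection in whole retina, which is not an absence of the mark in vascular cells. In 4 of the 6 samples (replicates 1 and 2 of each group), the name carried by the deposited list is that of the other group, so every direction below holds for the groups as labelled. Photoreceptor genes, the check of the tissue, were marked at 9 to 10 of 10 promoters in every list.

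The promoters of the vascular genes were almost empty. Only Kdr had a promoter peak, in 2 of the 6 lists, and 9 of the 10 genes had none in any list. Among all protein-coding genes, 57.6% had a promoter peak in at least 1 list. No gene of the 10 was marked in all 6 lists, which was the case for 39.5% of all genes. Over the whole loci, 4 of the 10 genes (Flt1, Pecam1, Kdr and Pdgfrb) had a peak in at least 1 list, against 71% of all genes. A single gene, Flt1, had one in all 6 lists, against 55.3%. The 10 loci, 992 kb in total, held 16 peaks over all lists. Of these, 6 were the Flt1 peak, 2 lay at the Kdr promoter and 0 at the promoter of another gene.

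**Figure D1:**
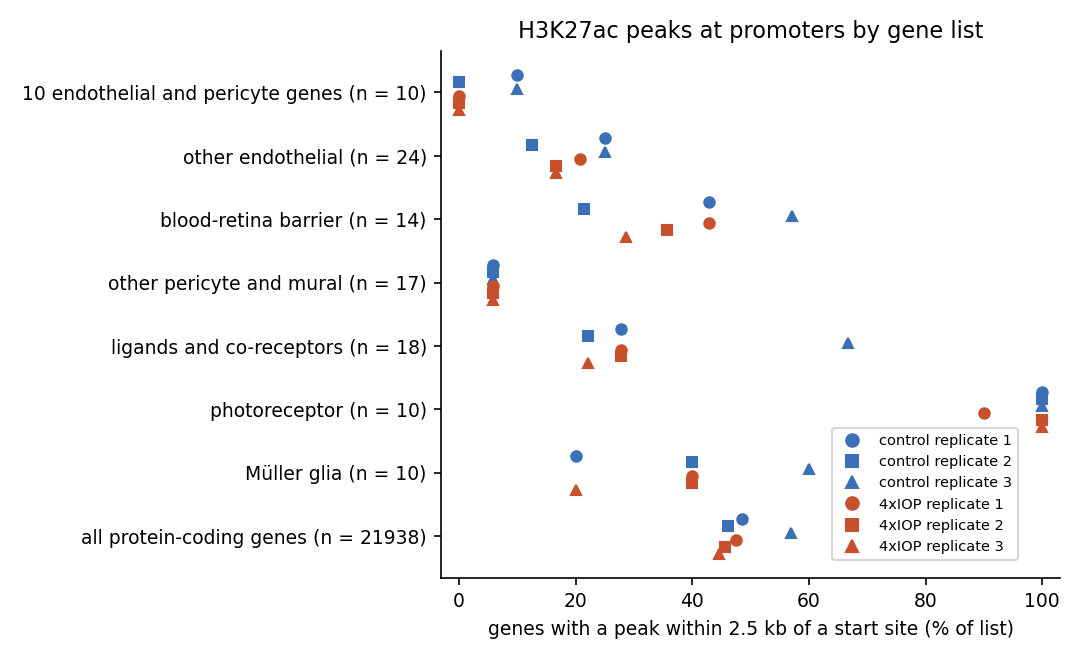
Share of genes (x axis, %) with an H3K27ac peak within 2.5 kb of a start site, for each gene list (y axis, number of genes in brackets) and each of the 6 lists of peaks (blue, control; red, 4xIOP; the symbol gives the replicate). The 10 endothelial and pericyte genes sit at 0 or 10%, and photoreceptor genes at 90 or 100%.

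Of the 10 genes, the junction genes Cldn5 and Cdh5 had no peak at their loci in any list. Cldn5 (chr16:18776847-18778262), the dominant claudin of the endothelial tight junction, was the first of these. The nearest peak to its TSS was 34.7 to 35.5 kb away in 5 lists, at the shared promoter of Cdc45 and Ufd1, and 59.7 kb away in 4xIOP replicate 2. Cdh5 (chr8:104101625-104144511), which encodes the adherens junction protein VE-cadherin, had its nearest peak 146.2 to 146.6 kb away in all 6 lists, at the promoter of Tk2. For both genes, the nearest called peak was therefore at a promoter of other genes in every list.

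The angiopoietin receptor Tek (Tie2, chr4:94739289-94874976) and its partner Tie1 (chr4:118471191-118490061) had no peak at their loci either. The nearest peak to Tek was 123.8 to 124.3 kb away, at the promoter of Ift74, in every list. That of Tie1 varied more, from 46.9 kb in control replicate 3 to 79.9 kb in 4xIOP replicate 2. Sox17 (chr1:4490931-4497354), a transcription factor of arterial endothelium, had its nearest peak 74.2 to 74.3 kb away in 5 lists and 112.6 kb away in 4xIOP replicate 3. For the pericyte gene Rgs5 (chr1:169655501-169695813), a regulator of G-protein signalling, the distance was 123.1 to 123.5 kb in 5 lists, to the Nuf2 promoter, and 92.5 kb in control replicate 3, to the Rgs4 promoter. These distances were alike across the lists of both groups, apart from single lists in which a peak was gained or lost.

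**Figure D2:**
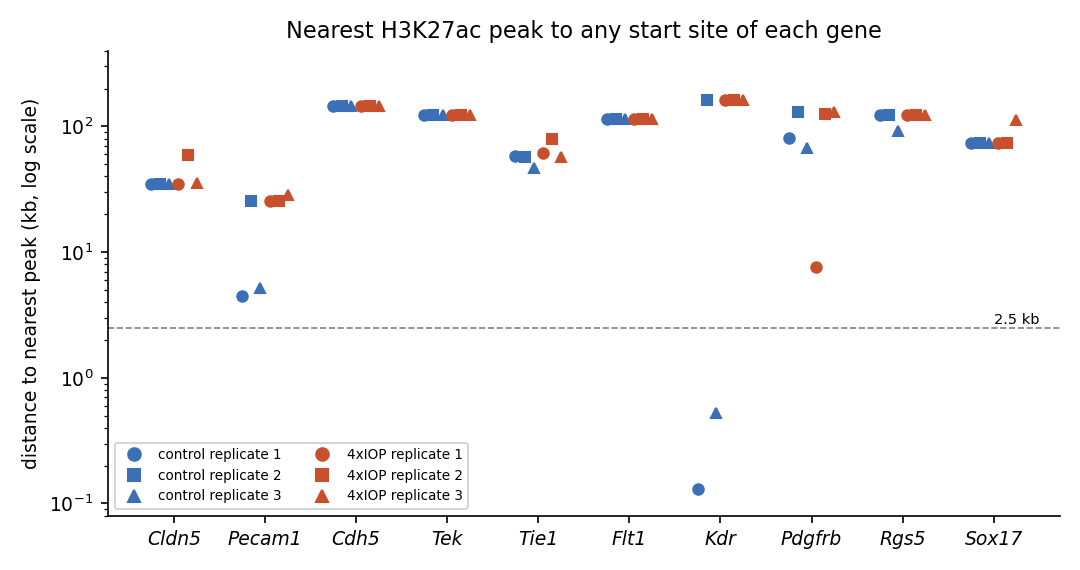
Distance from any start site of each gene to the nearest peak (y axis, kb, log scale) for the 10 genes (x axis) in the 6 lists (blue, control; red, 4xIOP; the symbol gives the replicate). The dashed line is the promoter limit of 2.5 kb, and only Kdr in control replicates 1 and 3 lies under it, at 0.131 and 0.527 kb.

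Kdr (chr5:75932827-75978458, minus strand) encodes VEGFR2, the main signalling receptor for VEGF. Its peaks had their summits in the first intron. They lay at chr5:75977840-75978327 in control replicate 1 and chr5:75977706-75977931 in control replicate 3. The first held 11 fragments at a summit 0.444 kb into the gene, and the second held 19 fragments at 0.624 kb. Their fold enrichments were 3.55 and 5.23. The peaks shared 92 bp, and the summits were low in their lists, at the 0.642 and 20.0 percentiles of summit fragments. Control replicate 2 and the 3 4xIOP lists had no peak there, and their nearest peak was 161.8 kb away at the promoter of Srd5a3. The Kdr promoter was thus marked in 2 of 3 control lists and 0 of 3 4xIOP lists, and the groups overlapped. The shared bases of the 2 peaks (GRCm38, minus strand, chr5:75977840-75977931) are shown because they are the only promoter sequence of the 10 genes that was called in more than 1 list, with CpG sites in capitals.
Kdr first intron: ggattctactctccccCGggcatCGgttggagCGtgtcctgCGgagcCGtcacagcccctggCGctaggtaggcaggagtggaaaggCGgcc

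Pecam1 (CD31, chr11:106654217-106750628), an adhesion molecule of endothelial junctions that leukocytes and platelets also carry, had peaks in 3 lists. Control replicate 3 held 5 peaks with 15 to 30 fragments, of which 3 were intronic, 1 was upstream (summit at -5.36 kb from the first TSS) and 1 lay downstream of the gene. Control replicate 1 held 1 upstream peak at -4.59 kb, with 15 fragments, and 4xIOP replicate 1 held 1 peak downstream of the gene, with 17 fragments. The other 3 lists had none. The upstream peaks of the 2 control lists did not overlap, and neither did the downstream peaks, so no Pecam1 element was called in more than 1 list.

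Pdgfrb, the receptor through which endothelial PDGF-B recruits pericytes, had 1 peak. It was an intronic peak in 4xIOP replicate 1, with 12 fragments at a summit 7.80 kb from the first TSS and a fold enrichment of 3.97. In the other 5 lists the nearest peak was 66.9 to 131.3 kb away.

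**Figure D3:**
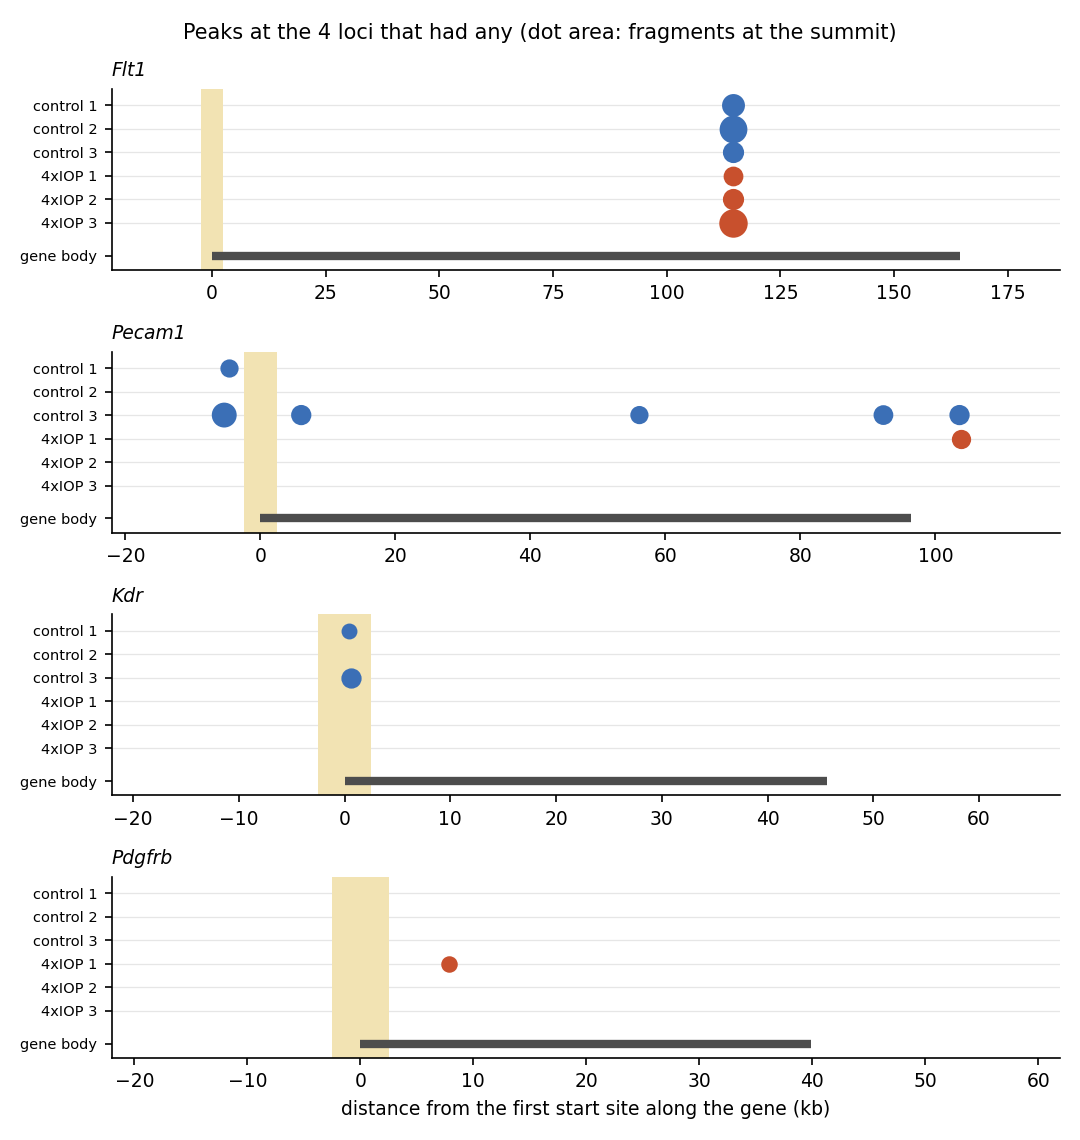
Peaks at the 4 loci that had any, by distance of the summit from the first start site (x axis, kb) in each list (rows; blue, control; red, 4xIOP). Dot area is proportional to the fragments at the summit, the bar is the gene body and the shaded band is 2.5 kb on either side of the first start site. The Flt1 peak lies at the same distance in all 6 lists, and the other loci have peaks in 1 to 3 lists.

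Flt1 (chr5:147561604-147726011, minus strand) encodes VEGFR1, a high-affinity VEGF receptor whose soluble form acts as a decoy. Its single peak was intronic, between exons 15 and 16, 114.5 kb from the first TSS. The 6 peaks were 236 to 302 bp wide. In control replicates 1 to 3, the summits held 25, 38 and 21 fragments. In the 4xIOP replicates, in the same order, they held 18, 21 and 40. The fold enrichment was 8.15, 8.90 and 6.34 in control and 6.31, 7.05 and 11.5 in 4xIOP. The highest value was in 4xIOP replicate 3 and the lowest in 4xIOP replicate 1, so the groups overlapped. By fold the peak stood at the 81.4 to 99.6 percentile of its list, although by fragments it stood at the 15.2 to 84.8 percentile.

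The Flt1 peak lay on an array of the telomere-type repeat TTAGGG. The whole array held 30 exact copies, and the peaks covered 21 to 28 of them. Soft-masked repeat sequence made up 59.5 to 77.6% of the 6 peaks. Across the genome, 274 arrays of at least 10 copies were found. A peak in all 6 lists was present at 6 of them (2.19%), and 255 (93.1%) had no peak in any list. Among the 46 arrays with at least as many copies as the one at Flt1, 5 had a peak in all 6 lists and 34 in none. Arrays with a peak numbered 11, 16 and 10 in the control lists, by replicate. In the 4xIOP lists there were 7, 8 and 17. Reads from such repeats can be placed at more than 1 array, so whether this signal came from the Flt1 intron was not tested. Without the array, no vascular locus had a peak in all 6 lists, and 3 of the 6 lists had no peak at any of the 10 loci.

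**Figure D4:**
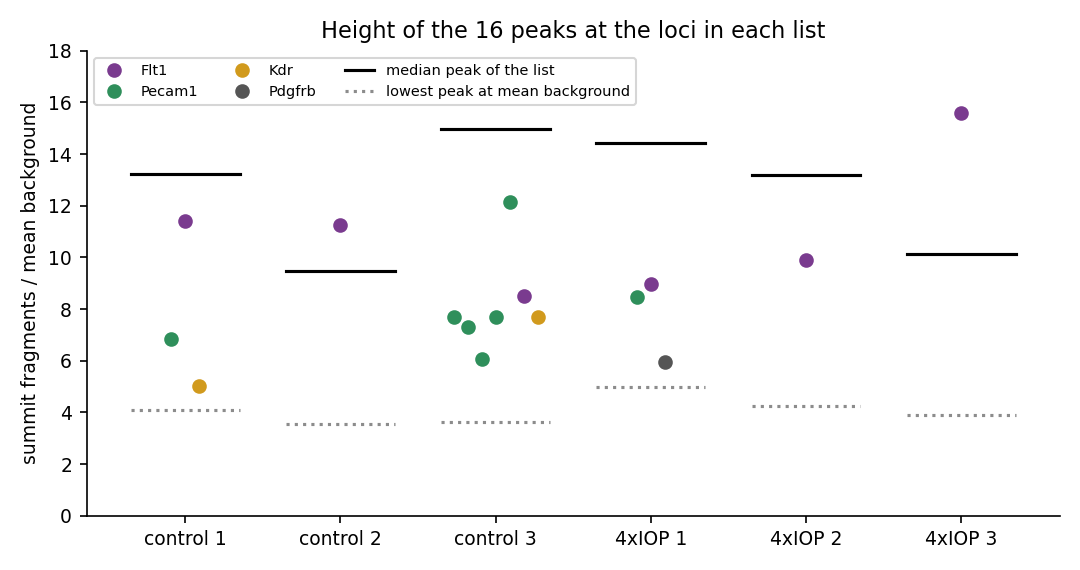
Fragments at the summit divided by the mean background of the list (y axis) for the 16 peaks at the loci, by list (x axis) and gene (colour). Solid bars are the median peak of each list and dotted bars the lowest peak called at the mean background. Flt1 is above the median in control replicate 2 and 4xIOP replicate 3, and all peaks of Pecam1, Kdr and Pdgfrb are below it.

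To ask whether recurring pressure elevation changed the mark at the vascular loci, the groups were compared. By replicate, the control lists had 3, 1 and 7 peaks at the 10 loci, and the 4xIOP lists had 3, 1 and 1. This gave 3.67 ± 3.06 peaks per control list and 1.67 ± 1.15 per 4xIOP list (SD, n = 3), with overlapping values. Control replicate 3 accounted for most of the difference of -2 peaks, which was -0.333 without it. Per Mb of locus these were 3.02, 1.01 and 7.06 peaks in control and 3.02, 1.01 and 1.01 in 4xIOP. The whole genome had 8.03, 7.31 and 13.4 peaks per Mb in control and 7.46, 7.63 and 5.94 in 4xIOP. The vascular loci were thus poorer in peaks than the genome in each of the 6 lists. With the same number of top peaks taken from every list, the difference was 0.333 peaks, the opposite direction.

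Both limma fits gave no call at the main settings, while alternative scales for locus coverage gave 9 and 55 calls (closing section). For the length of the locus covered by peaks, 0 of 13861 genes passed an adjusted p of 0.05 (0%, with 757 genes at an unadjusted p under 0.05). Of the vascular genes, only Pecam1 and Flt1 had a peak in at least 3 lists and were tested. Flt1 was covered over 302, 263 and 254 bp in control and 236, 259 and 261 bp in 4xIOP. On the log2(bp + 500) scale, centred on the median gene of each list, the difference (4xIOP minus control) was 0.28 ± 0.24 (SE, limma adjusted p = 0.911). The uncentred difference was -0.04. Without control replicate 3 the centred difference was 0.03, and without 4xIOP replicate 3 it was 0.15. Pecam1 was covered over 220, 0 and 1453 bp in control and 230, 0 and 0 bp in 4xIOP. Its difference on the same scale was -0.33 ± 0.28 (SE, limma adjusted p = 0.911). It was -0.57 without control replicate 2 and -0.18 without 4xIOP replicate 2. Control replicate 3 held most of the covered length in control. Without that list, control replicate 1 or 4xIOP replicate 1, Pecam1 had peaks in too few lists to be tested.

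Among regions called in all 6 lists, ranked by fold within each list, limma called 0 of 10529 (0%, with 334 at an unadjusted p under 0.05). The Flt1 peak was the only such region at the 10 loci. Its rank score differed by 0.42 ± 0.50 (SE, limma adjusted p = 1.00), from 1.14 in control to 1.56 in 4xIOP. Without control replicate 3 the difference was -0.19, and without 4xIOP replicate 3 it was -0.09. The difference was smaller than its standard error, and its direction rested on single lists.

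Promoter sequence was compared next, since CpG-rich promoters are often acetylated in many tissues. RefSeq promoters (GRCm38, 250 bases before to 50 after the start) were matched for 6 of the 10 genes: Cldn5, Tek, Tie1, Flt1, Kdr and Rgs5. As fewer than 80% of the genes had an entry, the check was void for the list, and the 6 genes are given one by one. Their CpG counts in 300 bases were 3 in Tek, 6 in Rgs5, 7 in Tie1, 12 in Cldn5, 19 in Kdr and 29 in Flt1. The comparison used the 16505 protein-coding genes matched to a promoter entry, each at its most CpG-rich entry. Those marked in all 6 lists had a median of 24 CpG sites (quartiles 17 and 32, 6812 genes). Those marked in none had a median of 3 (quartiles 1 and 8, 6675 genes). Tek, Rgs5 and Tie1 thus lay within the quartiles of unmarked genes, Kdr and Flt1 within those of marked genes and Cldn5 between them. Of 3228 other genes with at least as many CpG sites as Flt1, 72.2% were marked in all 6 lists and 7.68% in none, while Flt1 itself was marked in none.

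The 250 bases before the start are printed 5′ to 3′ on the strand of each gene for the 2 CpG-rich and the 2 CpG-poor extremes of the 6, with CpG sites in capitals. They lie at chr5:147726012-147726261 (Flt1, minus strand), chr5:75978456-75978705 (Kdr, minus strand), chr1:169655251-169655500 (Rgs5, plus strand) and chr4:94739039-94739288 (Tek, plus strand), and hold 23, 16, 4 and 2 CpG sites.
Flt1 promoter: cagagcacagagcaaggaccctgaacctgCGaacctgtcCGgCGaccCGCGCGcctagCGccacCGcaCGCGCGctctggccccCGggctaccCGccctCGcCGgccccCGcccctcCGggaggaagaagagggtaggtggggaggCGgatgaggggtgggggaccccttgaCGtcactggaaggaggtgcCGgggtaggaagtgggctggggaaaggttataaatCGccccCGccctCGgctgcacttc
Kdr promoter: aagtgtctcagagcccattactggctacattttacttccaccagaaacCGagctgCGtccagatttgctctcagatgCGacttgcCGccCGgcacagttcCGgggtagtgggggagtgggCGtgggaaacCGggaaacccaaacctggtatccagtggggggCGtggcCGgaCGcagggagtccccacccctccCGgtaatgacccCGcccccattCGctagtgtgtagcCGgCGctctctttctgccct
Rgs5 promoter: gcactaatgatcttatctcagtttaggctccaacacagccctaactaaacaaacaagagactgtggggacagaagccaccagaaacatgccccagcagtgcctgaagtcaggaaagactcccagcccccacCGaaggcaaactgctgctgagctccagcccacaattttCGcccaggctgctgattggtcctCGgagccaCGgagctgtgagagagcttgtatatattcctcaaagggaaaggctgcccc
Tek promoter: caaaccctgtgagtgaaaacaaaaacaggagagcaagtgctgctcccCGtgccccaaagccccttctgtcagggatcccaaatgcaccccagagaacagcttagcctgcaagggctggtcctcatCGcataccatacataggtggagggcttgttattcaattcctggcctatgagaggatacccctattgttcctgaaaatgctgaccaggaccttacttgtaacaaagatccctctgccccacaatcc

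Motifs were searched on both strands of the 300 bases. The GC box GGGCGG was in the promoters of Cldn5, Flt1 and Kdr, and in 35.7% of all 32851 promoter entries. CCGGAA, a core bound by ETS factors, was in that of Kdr and in 14.9% of entries. AGGAAG, an ETS-type sequence that shares GGAA with it, was in those of Flt1 and Tie1 and in 35.4% of entries. TATAAA was in that of Flt1 and in 13.6%. Tek and Rgs5 held none of these letters in this window.

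**Figure D5:**
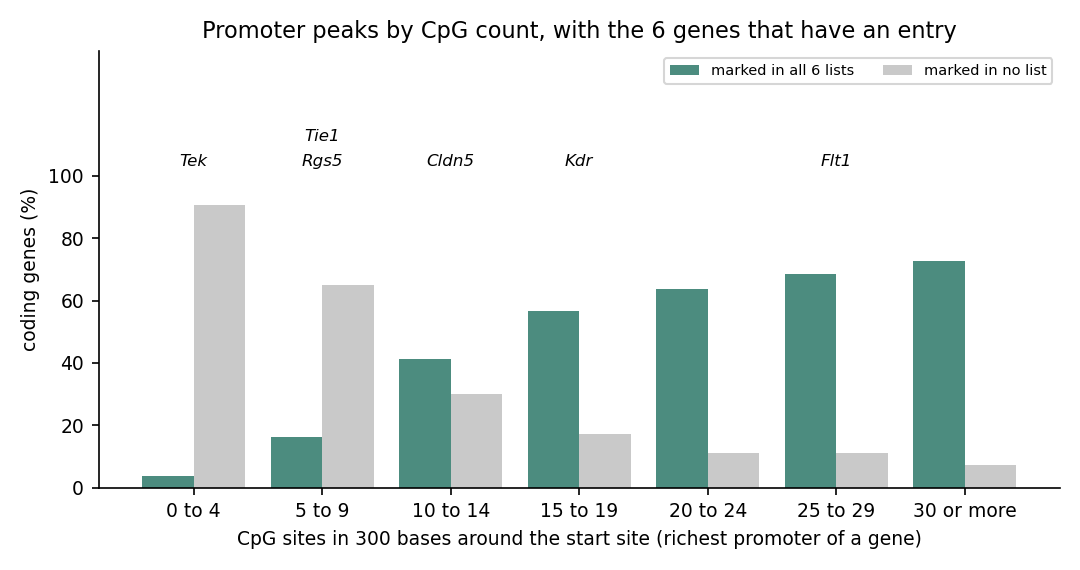
Share of the protein-coding genes with a promoter entry (y axis, %) marked in all 6 lists (green) or in none (grey). The x axis gives CpG sites in 300 bases around the start site, at the most CpG-rich entry of each gene. The names above the bars place the 6 vascular genes with a promoter entry. Flt1 is in a class in which 68.6% of genes are marked in all lists, and Tek in one in which 90.5% are marked in none.

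Further vascular genes were examined as 4 lists, which together had 73 genes. Of these, 10 were marked in all 6 lists (39.5% of all protein-coding genes were) and 45 in none (42.4% of all genes were). Of 24 other endothelial genes, 6, 3 and 6 were marked in the control lists, by replicate, against 5, 4 and 4 in the 4xIOP lists. The remaining 17 were marked in no list. Those marked in all 6 were Rasip1, a Ras-interacting protein needed for vessel lumen formation, Apold1, an endothelial early response gene, and Ramp2, the co-receptor for adrenomedullin. The Apold1 peak flanked the TSS rather than covering it, at 1.64 to 2.01 kb, within the limit of 2.5 kb. Divided by the mean background of the list, the summit fragments of Rasip1 were 17.3, 10.9 and 23.9 in control and 16.4, 14.6 and 9.35 in 4xIOP. Those of Apold1 were 14.1, 9.47 and 21.1 in control and 14.4, 12.3 and 9.74 in 4xIOP. Ramp2 had 12.8, 5.32 and 15.4 in control and 11.9, 10.4 and 7.01 in 4xIOP. The groups overlapped for each of these genes. Control replicate 3 was highest for all 3 genes.

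Pericyte and mural genes resembled Pdgfrb and Rgs5 in that 16 of 17 were marked in no list. The exception was Vtn, which encodes vitronectin, with 66 to 147 fragments in the 6 lists, and the peak there also overlapped the promoter of Sarm1. Vascular ligands and co-receptors were marked more often in control replicate 3 (12 of 18) than in the other 5 lists (4 or 5). Those marked in all 6 lists were Fzd4, the receptor for norrin in retinal vessels, the ligands Vegfa and Vegfb, and the Notch ligand Jag1. On the same scale, Fzd4 had 30.6, 18.9 and 44.1 in control and 28.3, 33.0 and 20.7 in 4xIOP, and the groups overlapped. Several of these genes are also expressed by neurons or glia, and the cell type of origin was not tested.

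Of 14 blood-retina barrier genes, 6, 3 and 8 were marked in control and 6, 5 and 4 in 4xIOP. Tjp1, the junction scaffold ZO-1, and Slc7a5, a transporter of large neutral amino acids, were marked in all 6 lists, and the Slc7a5 peak also overlapped the promoter of BC048644. Slc2a1, which encodes the glucose transporter GLUT1 of the barrier, was the only one of the 73 genes marked in all lists of one group and in none of the other. This pattern was found for 79 of 21938 genes (0.36%) in the control direction and for 0 (0%) in the 4xIOP direction. Of the 3 control lists with the Slc2a1 promoter peak, 2 (replicates 1 and 2) carry the name of the other group, as do 2 of the 3 4xIOP lists without it, so the pattern does not hold by carried name. Both counts over all genes changed with single lists: without control replicate 3 they were 82 and 36, and without one of the other lists the control count was 138 to 277. With the same number of top peaks per list they were 29 and 10. The promoter peak of Slc2a1 had 52, 81 and 125 fragments in control replicates 1 to 3, at 0.270, 0.224 and 0.245 kb downstream of the TSS. The local background there was high, at 20.0, 20.9 and 33.7 fragments, and the fold enrichment was 2.53, 3.74 and 3.63. In 4xIOP replicates 1 to 3, the nearest peaks had summits at 4.00, 3.99 and 3.36 kb with 68, 61 and 39 fragments. Control replicates 2 and 3 also had peaks at 3.27 and 3.38 kb, which overlapped that of 4xIOP replicate 3. Upstream of the TSS, control replicates 2 and 3 had peaks at -2.86 and -2.80 kb, where no 4xIOP list had one. All 3 control lists had a peak near 4.00 kb, with summits at 4.07 to 4.10 kb and 48, 49 and 101 fragments. Each of the 6 lists therefore had a peak within the Slc2a1 gene, and the 4xIOP lists each had 1 peak within 5 kb of the TSS against 2 to 4 in control.

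Marker genes of Müller glia were counted in the same way. Of 10 such genes, 2, 4 and 6 had marked promoters in control and 4, 4 and 2 in 4xIOP. The vascular genes, at 1, 0 and 1 in control and 0 in each 4xIOP list, were below the lowest Müller glia count. An empty promoter was not particular to them, since 9 of 10 microglia genes were also marked in no list. Over all genes, 46.2 to 56.9% of promoters were marked in control lists and 44.6 to 47.4% in 4xIOP lists.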

How the data were processed

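H3K27ac ChIP-seq of 6 mouse retinas (3 control, 3 4xIOP) was deposited as 1 narrowPeak list per sample, called by the authors without pooling. The submitters' processing notes name mm10, STAR 2.7.8a, MACS2, HOMER, edgeR and bedtools 2.29.2 with no role. The study describes peak calling with MACS2 for its ATAC-seq data, and the threshold used for these ChIP-seq lists is not given in the sources used here. The lowest −log10 q was 1.31. Per peak, the deposited values are an integer score (not used), the authors' fold enrichment (a ratio of pile-up to local background), and the authors' −log10 p-value and q-value.

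Summit fragments and backgrounds were recovered from fold, (fragments + 1) / (background + 1), and the Poisson p. In each list, at least 99.99% of peaks gave back their p with an error of at most 0.001 (−log10). The lists state no read depth, and the recovered mean background stands for it. Genes were those of GENCODE vM21 basic on GRCm38, and an overlap of 1 bp counted. limma 3.58.1 (R 4.3.3, Benjamini-Hochberg) was run on normal scores of within-list fold ranks for shared regions, and on log2(covered bp + 500), median-centred, for loci with a peak in at least 3 lists. Both were also run on simulated data, the outcome of which is not given here. A fit without calls therefore does not show that the mark was unchanged. Alternatives are given in the closing section. Groups and replicate numbers came from the labels, which do not say that the mice are distinct, so p-values measure the spread between these samples. TTAGGG arrays were runs of at least 10 copies with gaps of up to 60 bp.

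The genes, gene lists and tests were chosen with earlier results of these data known. All 10 genes are named. Of the further lists, up to 4 genes marked in all 6 lists were named, as was every gene marked in all lists of 1 group and in none of the other. Some items are not reported here.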

Additional observations from a re-analysis of the deposited data

How the results depend on the processing

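The difference in peaks at the 10 loci (4xIOP minus control, main value -2 per list) was 0.333 with the same number of top peaks (16195) per list, and -6 with only the 2 lists whose carried name is that of the label. Leaving out 1 list gave -3.33 to -0.333. The difference in marked promoters of the 10 genes (main value -0.667 per list) was 0 with equal top peaks, where Kdr lost both peaks. With a −log10 q of at least 5 it was -0.333, as the Kdr peak of control replicate 1 (2.56) fell below that limit. When 1 list was left out it was -1 to -0.5. Promoters marked only in control numbered 29 with equal top peaks and those marked only in 4xIOP numbered 10. When 1 list was left out these were 82 to 277 and 0 to 36. For locus coverage, limma made 9 calls with a pseudocount of 100 bp and 55 (1 higher, 54 lower) on the highest summit over background, and neither Pecam1 nor Flt1 was among them (limma adjusted p = 0.917 and 0.977). The Flt1 coverage difference reversed to -0.0394 without centring, where the median gene was at -0.302. The Flt1 rank score difference was -0.193 to 0.826 when 1 list was left out, reversed without control replicate 3 (-0.193) and without 4xIOP replicate 3 (-0.0945). The cause was not tested. The Pecam1 coverage difference (main value -0.330) was -0.895 with a pseudocount of 100 bp, -0.904 on the highest summit over background and -0.574 to -0.181 in the 3 fits without 1 list that still tested it. Pecam1 left the tested set with a −log10 q of at least 5, equal top peaks, a flank of 5 kb, and without control replicate 1, control replicate 3 or 4xIOP replicate 1. The Flt1 coverage difference was 0.0273 to 0.442 when 1 list was left out. The other values that were computed kept their direction and side of the threshold.

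Samples share replicate numbers, but same-numbered samples did not deviate together (correlations of -0.0208, -0.0571 and -0.146 for regions, -0.0258, -0.109 and -0.253 for loci). With the replicate block, limma made 0 calls in both fits (289 regions and 626 loci at an unadjusted p under 0.05), the Flt1 coverage difference was 0.279 and that of Pecam1 -0.330. The fragment-length class (shortest peak of a list above or below 200 bp), a term chosen after seeing the data, changed no call. The class above 200 bp held control replicate 1 and 4xIOP replicates 1 and 2, so it was not balanced between the groups. The difference in peaks at the 10 loci was -1 within the class above 200 bp and -3 within that below. Peak lists show no signal below the threshold, so loci without a peak cannot be ranked.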
